A study of Mus musculus with 9 samples.

Results

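Genes of cholesterol synthesis, sterol sensing and sterol export were followed through the livers of mice given thioacetamide (TAA), with and without the drug sulodexide. The members were the 28 genes of a list drawn up by pathway, from the first condensation of acetyl-CoA to the carriers that move sterols out of the cell, and each was found by its symbol in a table of 34745 genes. All 28 were among the 13701 genes with enough counts to be tested. The list does not hold every enzyme of the pathway.

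Messenger RNA of whole liver from C57BL/6 mice was sequenced in 3 groups of 3 libraries each. The control group is labelled as control only, and whether it received the vehicle is not given in the sources used here. Mice of the other groups drank water with TAA, which hepatocytes convert to toxic products and which is used to cause liver fibrosis, at 400 mg/L over 16 weeks. From week 13 these mice also received either vehicle or sulodexide every day for 4 weeks while TAA went on, so every treated liver was still exposed to TAA when it was taken. Sulodexide is a mixture of glycosaminoglycans, mainly a heparin fraction with dermatan sulfate, and its dose is not given in the sources used here. Sex and the hour of sampling are likewise not given, and since the labels do not state that every library came from another mouse, the spread between libraries behind each p-value may be technical.

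Cholesterol is built from acetyl-CoA through mevalonate, isoprenoid diphosphates, squalene and lanosterol, and the liver is a main site of this synthesis. Most genes of the pathway are driven by the transcription factor that Srebf2 encodes, which is made as a membrane protein of the endoplasmic reticulum. When membrane sterol is low, Scap escorts it to the Golgi for cleavage. When sterol is ample, the products of Insig1 and Insig2 hold Scap back.

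Each library held between 13803697 and 16655951 counts assigned to genes, so that Ggps1, which had the fewest counts of the 28 members, was still measured in every library. Whole liver was compared here, and fewer cells of a type cannot be told apart from less RNA per cell. The hepatocyte markers Alb, Ttr, Apoa1, Hnf4a, Tat and Cps1 summed to 92470 to 115600 CPM (counts divided by library size scaled with TMM factors) in control libraries, 81190 to 98550 with TAA and vehicle, and 85500 to 108200 with TAA and sulodexide, and none was at 0 in any library. With TAA and vehicle 3 of these 6, Apoa1, Tat and Cps1, were lower than in control, and all 6 had negative log2 changes, with a median of -0.53. Markers of cholangiocytes, macrophages, stellate cells and dividing cells differed more between groups. All 6 cholangiocyte markers were higher with TAA and vehicle than in control, and their sums ran from 32.7 to 46.7 CPM in control, from 203.6 to 496.8 with vehicle and from 41.7 to 107.2 with sulodexide. All 6 macrophage markers and all 6 stellate cell and myofibroblast markers were also higher with TAA and vehicle than in control. Macrophage sums were 84.2 to 98.3 CPM in control, 165.5 to 449.1 with vehicle and 131.6 to 314.2 with sulodexide. Those of stellate cells and myofibroblasts were 47.3 to 56.3, 245.7 to 434.2 and 82.1 to 108 CPM in that order. Cldn4 among the cholangiocyte markers was at 0 in 1 library, and the macrophage markers Trem2 and Gpnmb held 3 values at 0. All 5 markers of dividing cells rose, from 4.48 to 5.82 CPM in sum in control to 28.3 to 44.5 with vehicle, and were at 7.93 to 19.4 with sulodexide. Endothelial markers summed to 143.0 to 190.0 CPM in control, 137.6 to 163.3 with vehicle and 144.9 to 214.3 with sulodexide, and 1 of the 5, Kdr, was lower with TAA and vehicle than in control. Periportal hepatocyte markers, of which 8 of 9 were lower with TAA and vehicle than in control, summed to 10360 to 13490, 6252 to 6640 and 7612 to 8184 CPM in that order. The part of these cells in the results below was not tested. Of 11 clock genes, 4 were higher and 5 lower with TAA and vehicle than in control, and 5 were higher with sulodexide than with vehicle, so the hour of sampling and the treatment cannot be told apart. Mitochondrially encoded genes took 9.89% to 10.9% of counts in control, 4.79% to 6.52% with vehicle and 6.24% to 7.85% with sulodexide.

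Some libraries stood apart for the sterol genes, vehicle library 2 the most. Vehicle library 2 was the highest of its group for 24 of the 28 members, whereas it was the highest for 35.2% of all tested genes. Vehicle library 3 was the lowest for 20 members against 29.6% of all tested genes. In the control group, library 1 was the highest for 17 members (35.1% of all tested genes) and library 3 the lowest for 16 (31.6%). The summed level of the members was 3909, 4979 and 3231 CPM in the vehicle libraries, 3160, 3091 and 2986 CPM in the control libraries and 3233, 3153 and 3247 CPM in the sulodexide libraries. The spread among vehicle livers was therefore wider than that among sulodexide livers, and vehicle library 3 summed to about the level of the sulodexide libraries. Calls and signs of members that change without vehicle library 2 are given below.

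Livers with TAA and vehicle held more mRNA for the early and middle steps of cholesterol synthesis than control livers. Of the 28 members, 14 were higher and 3 lower at an adjusted p below 0.05 by the quasi-likelihood test of edgeR, while 23.1% of all tested genes were higher and 20.4% lower. By role, 6 of the 8 genes of the mevalonate arm rose, as did all 3 genes from squalene to lanosterol and 3 of the 9 genes from lanosterol to cholesterol, of which another 2 fell. Of the 5 genes of sensing and transfer 2 rose and 1 fell, and 0 of the 3 export genes passed in edgeR, at an unadjusted p below 0.05 or in DESeq2. The median log2 change was 0.80 for the mevalonate arm, 1.15 from squalene to lanosterol, 0.12 from lanosterol to cholesterol, 0.11 for sensing and transfer and -0.21 for export. Over all 28 members the median was 0.51, beside 0.01 over all tested genes. The libraries of both groups did not overlap in 14 members that were higher and 5 that were lower with TAA, against 29.4% and 27.4% of all tested genes. Without vehicle library 2 the count was 10 higher and 4 lower and the median log2 change was 0.32. It was also 10 higher without control library 2 or without control library 3.

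**Figure D1:**
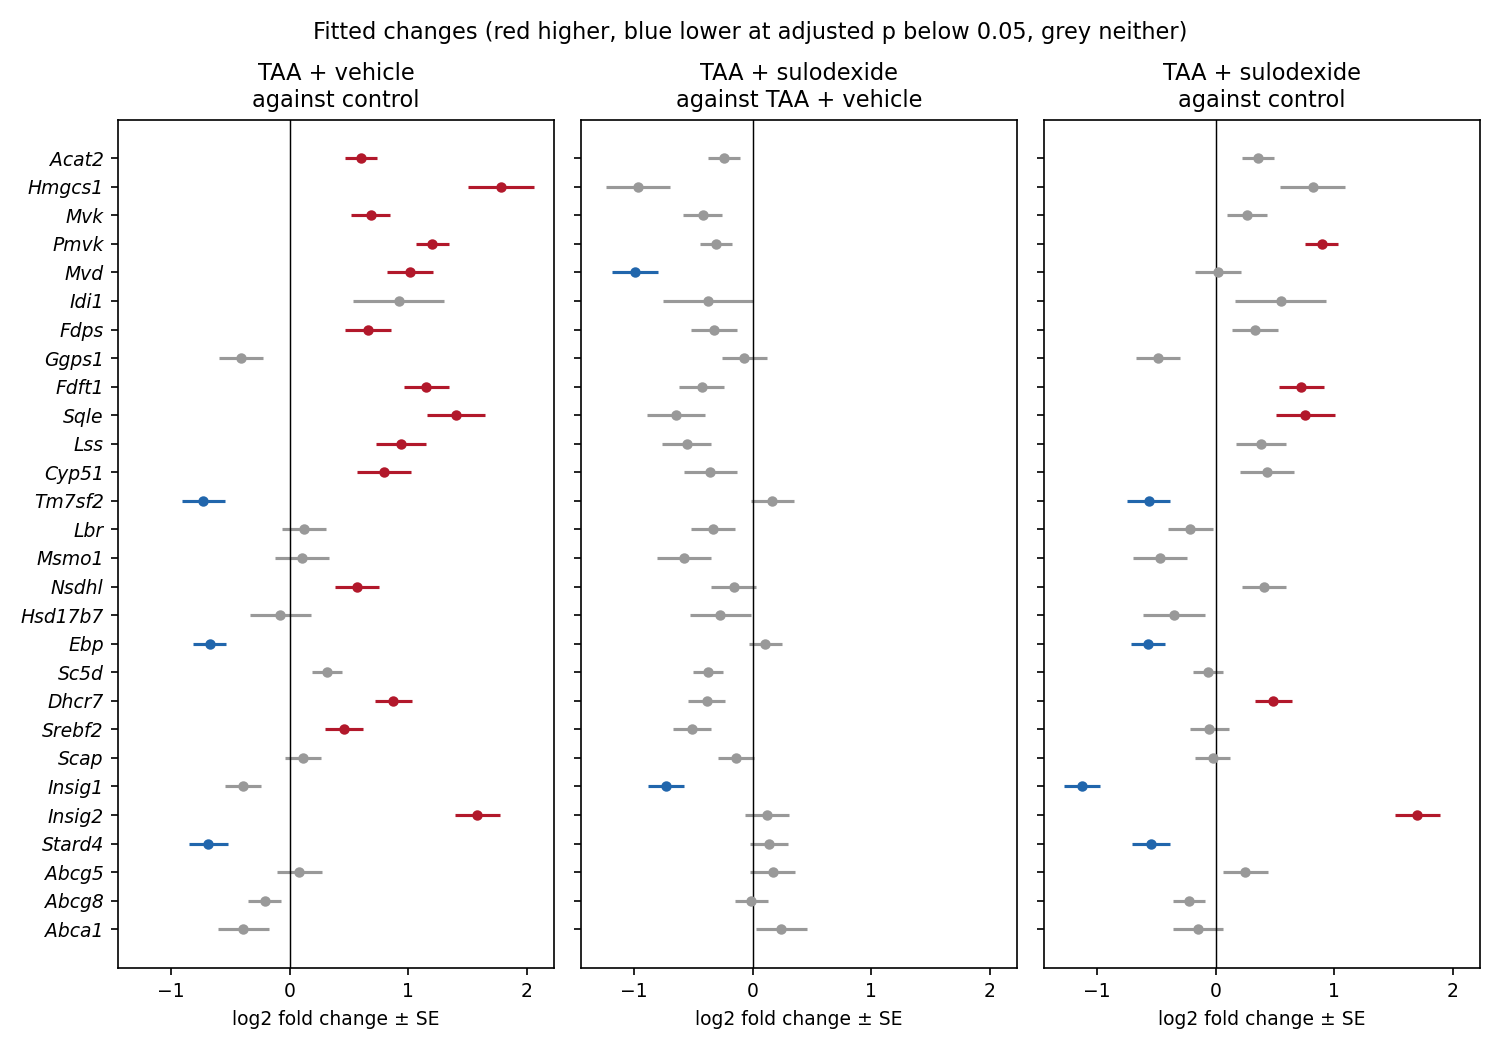
Log2 change of each member (points, with bars of 1 standard error) in the 3 comparisons, in pathway order from top to bottom. Red points passed as higher and blue points as lower at an adjusted p below 0.05 in edgeR, and grey points did not pass. Against control, 14 members passed as higher with TAA and vehicle, 0 members passed as higher with sulodexide against vehicle, and 2 passed as lower in that comparison.

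In the mevalonate arm 6 of the 8 genes rose, Hmgcs1 the most. Hmgcs1 (ENSMUSG00000093930, chr13:119690462-119708086, build GRCm38), which joins acetyl-CoA to acetoacetyl-CoA, was at 139.5, 110.0 and 104 CPM in the control libraries, 396, 587 and 236 in the vehicle libraries and 224, 208 and 192 in the sulodexide libraries. The groups did not overlap in any pair, and the vehicle libraries were highest. Hmgcs1 rose 3.45-fold with TAA and vehicle (log2 1.79 ± 0.28 SE, adjusted p = 0.000688), the largest rise of the 28 members. Acat2, the cytosolic enzyme of the step before it, was at 65.9, 73.3 and 68.7 CPM in control, 93.2, 124 and 99.0 with vehicle and 84.0, 82.8 and 100.2 with sulodexide, and rose 1.52-fold (log2 0.60 ± 0.14 SE, adjusted p = 0.00436). Its near-identical neighbour Acat3 had 2900 to 3780 counts per library, so a share of the Acat2 reads may be assigned with error.

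The kinases of mevalonate and of phosphomevalonate rose as well. Mvk was at 23.6, 19.6 and 25.6 CPM in control, 33.4, 45.9 and 31.4 with vehicle and 25.9, 26.6 and 30.2 with sulodexide. Its vehicle libraries were above all others, and the rise was 1.61-fold (log2 0.69 ± 0.17 SE, adjusted p = 0.00655). Pmvk (ENSMUSG00000027952, chr3:89454541-89469013), which adds the next phosphate, was at 36.8, 34.3 and 32.1 CPM in control, 71.8, 94.8 and 71.2 with vehicle and 65.2, 57.7 and 69.0 with sulodexide. Every TAA library stood above every control library, and the rise was 2.31-fold (log2 1.20 ± 0.14 SE, adjusted p = 8.43e-05).

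Mvd (ENSMUSG00000006517, chr8:122433596-122443422), the decarboxylase that makes isopentenyl diphosphate, was at 26.2, 24.4 and 21.6 CPM in control, 41.5, 63.7 and 41.0 with vehicle and 27.2, 26.6 and 19.5 with sulodexide. The vehicle libraries stood above both other groups, which overlapped each other. Mvd rose 2.02-fold with TAA and vehicle (log2 1.02 ± 0.19 SE, adjusted p = 0.00177). A gene model annotated on the opposite strand along nearly the whole of Mvd, Gm20388, had 0 counts in every library.

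Idi1, which isomerises isopentenyl diphosphate, had the largest standard error of the 28 members. It was at 35.9, 78.1 and 76.9 CPM in control, 115, 181 and 64.8 with vehicle and 94.3, 88.3 and 96.1 with sulodexide, so that control library 1 and vehicle library 3 were low in their groups. Its log2 change with TAA and vehicle was 0.92 ± 0.38 SE and did not pass in edgeR (adjusted p = 0.0830). Idi1 passed in DESeq2 (adjusted p = 0.0185) and without vehicle library 3 (log2 1.22, adjusted p = 0.0157). It also passed under scaling by library totals (0.0145) and in FPKM (0.0185), both settings that moved the median of all tested genes up. Fdps, which builds farnesyl diphosphate, the last intermediate shared by sterols and other isoprenoids, was at 162, 159 and 149.8 CPM in control, 232, 338 and 174 with vehicle and 204, 184 and 204 with sulodexide. The Fdps rise was 1.58-fold (log2 0.66 ± 0.20 SE, adjusted p = 0.0188), and without vehicle library 2 it was 0.37 on the log2 scale with an adjusted p of 0.0672. It also missed the threshold without control library 1, 2 or 3, with adjusted p of 0.0536, 0.0567 and 0.0707. Another gene model on the same strand, Gm43738, covers 7512 bases of Fdps and took 209 to 468 counts per library. Ggps1, which leads to the geranylgeranyl groups of prenylated proteins and away from sterols, was the single member of this arm with a negative change. It was at 7.12, 6.80 and 6.21 CPM in control, 4.46, 5.83 and 4.82 with vehicle and 5.03, 4.87 and 4.47 with sulodexide, where control stood above both treated groups, and its log2 change of -0.41 ± 0.19 SE did not pass (adjusted p = 0.0925).

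The DNA before the start of Hmgcs1 and Mvd is shown because these genes had, respectively, the largest rise with TAA and the largest fall with sulodexide among the members. The sequences are the 250 bases before the start in the RefSeq promoter table of build GRCm38.p6, written 5′ to 3′ on the strand of the gene, chr13:119690101-119690350 (plus strand) for Hmgcs1 and chr8:122443423-122443672 (minus strand) for Mvd. Capitals mark TCACNCCAC (a sterol regulatory element core), CCAAT (the box bound by NF-Y), CCGCCC (a GC box of the Sp1 family) and CACGTG (an E-box), each searched on both strands, and no matches overlapped in these stretches.
Hmgcs1: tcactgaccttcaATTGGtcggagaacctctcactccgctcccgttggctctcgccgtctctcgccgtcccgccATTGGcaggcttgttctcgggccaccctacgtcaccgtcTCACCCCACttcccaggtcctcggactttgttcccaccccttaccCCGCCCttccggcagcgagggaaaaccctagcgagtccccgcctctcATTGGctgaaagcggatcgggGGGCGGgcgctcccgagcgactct
Mvd: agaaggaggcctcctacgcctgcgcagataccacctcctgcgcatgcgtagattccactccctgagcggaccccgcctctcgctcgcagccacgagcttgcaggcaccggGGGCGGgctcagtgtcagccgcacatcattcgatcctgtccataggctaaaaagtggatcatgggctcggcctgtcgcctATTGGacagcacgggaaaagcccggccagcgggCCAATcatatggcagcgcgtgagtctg
In Hmgcs1 the sterol element TCACCCCAC begins 137 bases before the start, with 3 CCAAT boxes and 2 GC boxes in the printed stretch. Mvd has 2 CCAAT boxes and 1 GC box and no match to the sterol element in this window.

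The matches were counted in the RefSeq promoter windows of 24 members, which run from 250 bases before to 50 bases after the start and were compared with those of 27025 genes. CCAAT was found in 21 of the 24 members (87.5%) and in 41.1% of all genes, and CCGCCC in 20 (83.3%) and in 38.2%. Among protein-coding genes alone the shares were 42.3% for the CCAAT box and 49.2% for the GC box. Counted by window, since some genes have several, 67.7% of the members' 31 windows held the CCAAT box and 74.2% a GC box. Over all windows these shares were 37.4% and 35.7%, and over windows of protein-coding genes 38.2% and 46.2%. CACGTG was found in 6 (25.0%) and in 8.09% of all genes, and TCACNCCAC in 1 member, Hmgcs1 (4.17%), and in 1.44%. Among the 11 members with a window that rose with TAA and vehicle, 10 held CCAAT, and among the 13 that did not, 11 held it. The E-box was in 1 of the 11 and in 5 of the 13. A match gives the letters of a window only and shows no binding.

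All 3 genes from squalene to lanosterol rose with TAA and vehicle. Fdft1 (ENSMUSG00000021273, chr14:63145153-63177793), squalene synthase, which commits farnesyl diphosphate to sterols, was at 125, 112 and 100 CPM in control, 217, 336 and 195 with vehicle and 178, 172 and 206 with sulodexide. Control libraries were below all TAA libraries, and the rise was 2.23-fold (log2 1.15 ± 0.19 SE, adjusted p = 0.000785). Fdft1 overlaps 774 bases of the abundant cathepsin gene Ctsb on the opposite strand, and whether the counting used strand is not given in the sources used here.

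Sqle (ENSMUSG00000022351, chr15:59315077-59331192), the squalene epoxidase that is a control point of the later pathway, was at 77.1, 50.5 and 48.2 CPM in control, 160.0, 201 and 104 with vehicle and 110.1, 101 and 86.3 with sulodexide. The sulodexide libraries lay between the groups, above every control library and overlapping only vehicle library 3. Sqle rose 2.64-fold (log2 1.40 ± 0.25 SE, adjusted p = 0.00135). Lss, which closes the sterol rings to give lanosterol, was at 57.4, 50.8 and 49.1 CPM in control, 93.7, 139.5 and 68.2 with vehicle and 67.1, 70.4 and 67.1 with sulodexide, and rose 1.92-fold (log2 0.94 ± 0.21 SE, adjusted p = 0.00458).

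Of the 9 genes from lanosterol to cholesterol 3 rose and 2 fell in edgeR, beside 23.1% and 20.4% of all tested genes. The other 4 did not pass there, of which DESeq2 called Sc5d higher. Dhcr7, whose product reduces dehydrocholesterol to cholesterol, was at 89.1, 94.0 and 97.8 CPM in control, 161, 217 and 136 with vehicle and 141, 125 and 128 with sulodexide. All TAA libraries stood above all control libraries, and the rise was 1.83-fold (log2 0.87 ± 0.16 SE, adjusted p = 0.00126). Cyp51, the lanosterol demethylase, was at 177, 138 and 144 CPM in control, 257, 366 and 172 with vehicle and 194, 215 and 211 with sulodexide. It rose 1.73-fold (log2 0.79 ± 0.23 SE, adjusted p = 0.0164), although vehicle library 3 lay below the highest control library. Nsdhl, a dehydrogenase of the demethylation that follows, was at 77.0, 73.7 and 65.2 CPM in control, 101, 142 and 77.7 with vehicle and 89.2, 92.8 and 104 with sulodexide, and rose 1.48-fold (log2 0.57 ± 0.19 SE, adjusted p = 0.0305). Neither of the last 2 rises passed without vehicle library 2, where Cyp51 had a log2 change of 0.48 and an adjusted p of 0.0559 and Nsdhl 0.30 and 0.131. Cyp51 was also lost without control library 2 or 3, with adjusted p of 0.0682 and 0.0637, and Nsdhl without control library 1, 2 or 3, with 0.0625, 0.0778 and 0.117.

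Ebp and Tm7sf2 fell instead. Ebp, the isomerase that shifts the ring double bond, was at 279.5, 349 and 313 CPM in control, 181, 222 and 187 with vehicle and 184, 211 and 239 with sulodexide. Every control library was above every TAA library, and with TAA and vehicle Ebp was at 0.626 of its control level (log2 -0.68 ± 0.14 SE, adjusted p = 0.00287). Tm7sf2, which encodes a sterol reductase acting after Cyp51, was at 119, 113 and 89.5 CPM in control, 66.4, 70.9 and 56.2 with vehicle and 60.8, 62.5 and 93.8 with sulodexide. It fell to 0.603 of its control level (log2 -0.73 ± 0.18 SE, adjusted p = 0.00775), and sulodexide library 3 was the only TAA library to reach the control range. Both falls missed the threshold when libraries were scaled by their totals alone, at log2 changes of -0.28 (adjusted p = 0.0992) for Ebp and -0.34 (adjusted p = 0.175) for Tm7sf2. That scaling moved the median of all tested genes up by 0.41, and which scaling is right for these livers was not tested.

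Lbr, a nuclear envelope protein with the same reductase activity as Tm7sf2, had 13.1, 15.0 and 10.7 CPM in control, 14.8, 13.4 and 13.8 with vehicle and 11.4, 13.5 and 8.49 with sulodexide, and a log2 change with TAA and vehicle of 0.12 ± 0.19 SE (adjusted p = 0.635). Per length, Tm7sf2 was 9.91, 8.20 and 9.12 times as high as Lbr in the control libraries, 4.88, 5.77 and 4.44 times with vehicle and 5.80, 5.06 and 12.0 times with sulodexide. Control and vehicle libraries did not overlap in this ratio, whereas the sulodexide libraries spanned both.

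The remaining genes of the late pathway did not pass in edgeR with all 9 libraries. Sc5d, a desaturase, was at 270.0, 282 and 282 CPM in control, 369, 369 and 300.3 with vehicle and 261, 239.7 and 297 with sulodexide, with vehicle libraries above all others and a log2 change of 0.31 ± 0.13 SE (adjusted p = 0.0641). Sc5d passed as higher in DESeq2 (adjusted p = 0.0364) and without vehicle library 3 (0.0337). It also passed under scaling by library totals (0.00119) and in FPKM (0.00153), both settings that moved the median of all tested genes up. Msmo1, the methylsterol oxidase, was at 203, 144 and 113 CPM in control, 174, 178 and 143 with vehicle and 81.3, 134 and 117 with sulodexide. Control and vehicle overlapped widely for Msmo1, with a log2 change of 0.11 ± 0.23 SE (adjusted p = 0.733), and all 3 sulodexide libraries were below all 3 vehicle libraries. Hsd17b7, a ketosteroid reductase of the same demethylation, was at 87.2, 72.5 and 62.3 CPM in control, 63.1, 97.3 and 49.9 with vehicle and 72.2, 59.4 and 42.2 with sulodexide, with overlap between all groups and a log2 change of -0.08 ± 0.26 SE (adjusted p = 0.829).

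**Figure D2:**
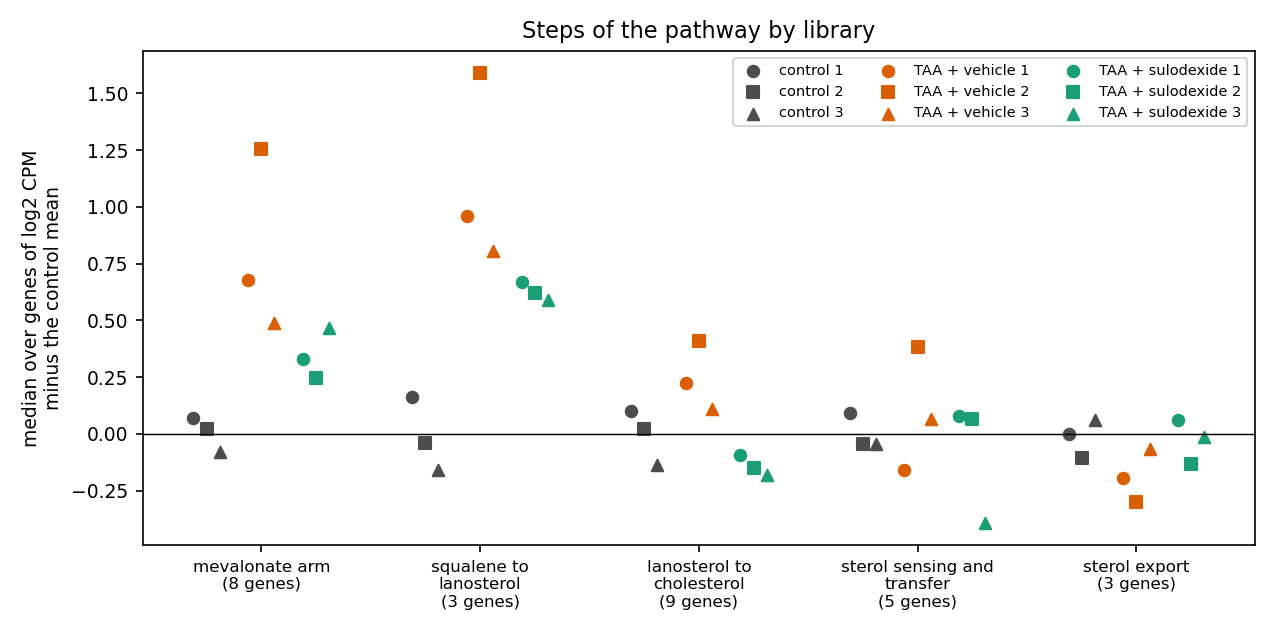
Median log2 difference from the control mean over the members of each role, in each of the 9 libraries (points), with control, TAA with vehicle and TAA with sulodexide in different colours. For squalene to lanosterol the vehicle libraries lie between 0.80 and 1.59 and the sulodexide libraries between 0.59 and 0.67, whereas for export they all lie between -0.30 and 0.06.

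Among the sensors, Insig2 rose about as far as Hmgcs1, whereas Insig1 just missed the threshold of edgeR in TAA livers with vehicle and fell in those with sulodexide. Insig2 (ENSMUSG00000003721, chr1:121304353-121332589) was at 88.2, 70.9 and 52.6 CPM in control, 239.8, 208 and 187 with vehicle and 238, 194 and 257 with sulodexide. All 6 TAA libraries stood above all control libraries, and both TAA groups overlapped. Insig2 rose 3.00-fold with TAA and vehicle (log2 1.58 ± 0.19 SE, adjusted p = 9.89e-05) and 3.25-fold with TAA and sulodexide (log2 1.70 ± 0.19 SE, adjusted p = 0.000188). Transcription of Insig2 in mouse liver is known to be lowered by insulin, whereas Insig1 is itself a target of the factor encoded by Srebf2.

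Insig1 (ENSMUSG00000045294, chr5:28071363-28078662) was at 328, 404 and 419 CPM in control, 284, 346 and 246 with vehicle and 188, 177 and 162 with sulodexide. The sulodexide libraries were below every library of both other groups, and vehicle and control overlapped at a single pair of libraries. With TAA and vehicle the log2 change was -0.39 ± 0.15 SE and did not pass in edgeR (adjusted p = 0.0522). Insig1 passed as lower in DESeq2 (adjusted p = 0.0413) and without control library 1 (0.0304) or sulodexide library 3 (0.0430). Its change was 0.012 under scaling by library totals, a setting that moved the median of all tested genes up. Without vehicle library 2 the Insig1 change was -0.54 (adjusted p = 0.0175). Over the 16 alternatives tried, its log2 change ran from -0.54 to 0.012, while that of Hmgcs1 ran from 1.42 to 2.18.

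Compared per length within a library, Insig2 was at 0.123, 0.0803 and 0.0573 times the level of Insig1 in control, 0.386, 0.274 and 0.348 times with vehicle and 0.578, 0.501 and 0.727 times with sulodexide. The ratio uses no scaling between libraries, and its 3 groups did not overlap, with control lowest and sulodexide highest. It was formed after the values of both genes were seen and is given without a test.

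**Figure D3:**
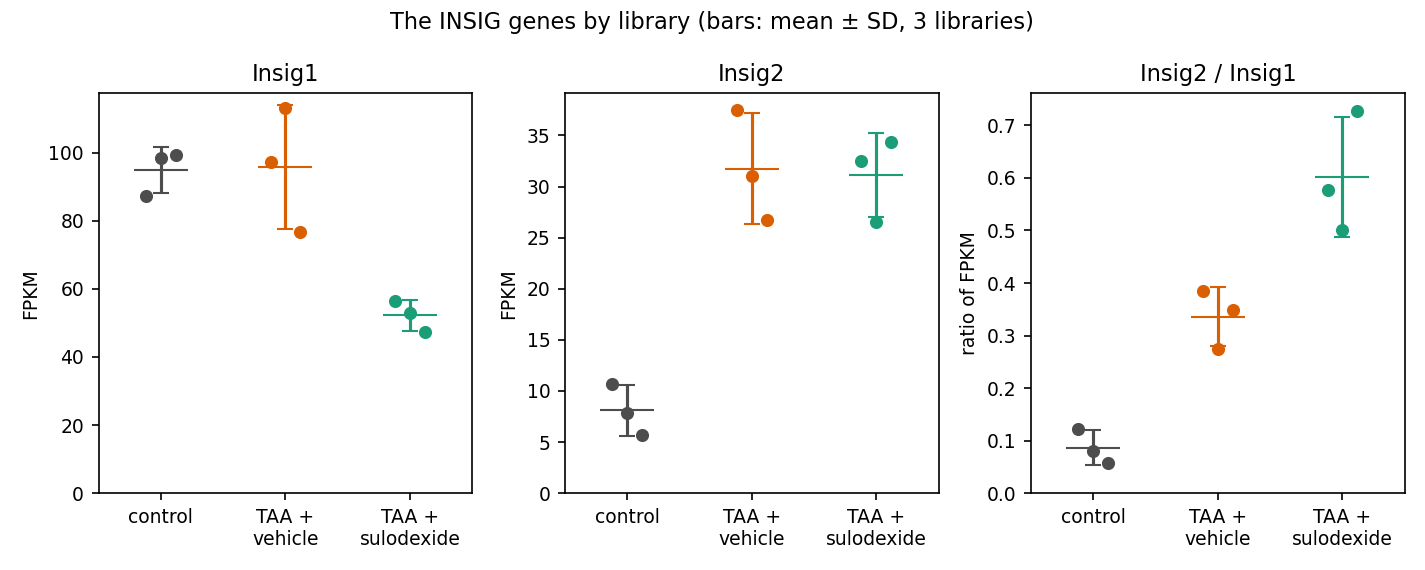
Deposited FPKM of Insig1 and Insig2 and their ratio in the 9 libraries, by group. Each point is a library. The ratio lies between 0.0573 and 0.123 in control, 0.274 and 0.386 with vehicle and 0.501 and 0.727 with sulodexide. FPKM are scaled to library totals, so that Insig1 appears level between control and vehicle in FPKM.

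The DNA before both genes is shown because the pair moved apart. The sequences are the 250 bases before the start in RefSeq (GRCm38.p6), chr5:28071162-28071411 on the plus strand for Insig1 and chr1:121332590-121332839 on the minus strand for the most upstream of the 3 Insig2 starts, with capitals marking the same motifs as above.
Insig1: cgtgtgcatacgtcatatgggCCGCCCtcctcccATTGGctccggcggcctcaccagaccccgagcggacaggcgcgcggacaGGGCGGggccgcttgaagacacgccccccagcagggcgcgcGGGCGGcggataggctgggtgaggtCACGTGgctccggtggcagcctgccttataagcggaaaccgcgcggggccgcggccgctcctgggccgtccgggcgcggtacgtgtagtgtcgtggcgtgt
Insig2: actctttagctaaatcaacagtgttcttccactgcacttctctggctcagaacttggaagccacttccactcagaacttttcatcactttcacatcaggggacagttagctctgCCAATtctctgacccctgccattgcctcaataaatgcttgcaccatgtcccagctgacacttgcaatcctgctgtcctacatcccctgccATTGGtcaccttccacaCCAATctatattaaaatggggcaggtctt
Insig1 has 3 GC boxes, 1 CCAAT box and, beginning 101 bases before the start, 1 E-box in the printed stretch. The upstream Insig2 window has 3 CCAAT boxes and no GC box or E-box, and neither window holds TCACNCCAC. The windows of the other Insig2 starts each held a GC box and no CCAAT box. Which start is used in these livers was not tested.

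Srebf2, which encodes the factor itself, was at 73.0, 61.2 and 59.8 CPM in control, 83.0, 103 and 79.8 with vehicle and 70.4, 67.5 and 49.0 with sulodexide. Vehicle libraries stood above both other groups, and the rise with TAA and vehicle was 1.37-fold (log2 0.46 ± 0.16 SE, adjusted p = 0.0401). The rise missed the threshold without vehicle library 1 or 2, with adjusted p of 0.0565 and 0.149, and without control library 2 or 3, with 0.132 and 0.143. Scap was at 126, 123 and 132 CPM in control, 113, 166 and 133 with vehicle and 134, 133 and 107 with sulodexide, with overlap between all groups. Its log2 change of 0.11 ± 0.15 SE did not pass (adjusted p = 0.566) and was -0.048 without vehicle library 2. Under scaling by library totals Scap passed as higher (log2 0.51, adjusted p = 0.0158), as it did in FPKM (0.49, adjusted p = 0.0209), both settings that moved all genes up.

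Stard4, which carries sterol between membranes inside the cell and is known as a sterol-regulated gene, was at 157, 143 and 143 CPM in control, 82.5, 115 and 78.8 with vehicle and 112, 106 and 85.1 with sulodexide. Every TAA library was below every control library. Stard4 fell to 0.622 of its control level with TAA and vehicle (log2 -0.69 ± 0.16 SE, adjusted p = 0.00563). The call was lost under scaling by library totals, where the log2 change was -0.29 (adjusted p = 0.185) and the median of all tested genes moved up.

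The export genes did not pass in edgeR with all 9 libraries in any of the 3 comparisons. Abcg5 and Abcg8 encode the partners of the carrier that secretes sterols into bile. Abcg5 was at 65.7, 71.6 and 73.2 CPM in control, 77.8, 59.3 and 85.4 with vehicle and 79.0, 63.9 and 108 with sulodexide, and Abcg8 at 75.3, 70.2 and 81.2 CPM in control, 65.8, 57.7 and 72.1 with vehicle and 64.2, 55.0 and 74.8 with sulodexide. Their log2 changes with TAA and vehicle were 0.08 ± 0.19 SE (adjusted p = 0.758) and -0.21 ± 0.14 SE (adjusted p = 0.238). The first was -0.036 without vehicle library 3. It passed under scaling by library totals (log2 0.48, adjusted p = 0.0475), a setting that moved the median of all tested genes up. The genes overlap by 6710 bases on opposite strands, so reads from that stretch cannot be told apart without strand. Abca1, which loads cholesterol onto apolipoproteins, was at 175, 148 and 165 CPM in control, 116, 132 and 124 with vehicle and 169, 180.1 and 90.5 with sulodexide. All vehicle libraries were below all control libraries, with a log2 change of -0.39 ± 0.21 SE (adjusted p = 0.162) that was 0.001 under scaling by library totals. Without sulodexide library 3 Abca1 passed as lower (log2 -0.41, adjusted p = 0.00942), as it did in a fit of the 2 groups only (log2 -0.39, adjusted p = 0.0171). The sulodexide libraries of Abca1 spread from below to above both groups.

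With sulodexide on top of TAA, 2 members were lower than with vehicle, Mvd and Insig1, and 0 were higher in edgeR, at an unadjusted p below 0.05 or in DESeq2. Over all tested genes, 3.41% were lower and 1.39% higher. Mvd was at 0.501 of its vehicle level (log2 -0.996 ± 0.19 SE, adjusted p = 0.0180) and Insig1 at 0.602 (log2 -0.73 ± 0.15 SE, adjusted p = 0.0215). Both were lower in 3 of 3 sulodexide libraries than in any vehicle library. The Mvd call was lost without sulodexide library 2 or 3 (adjusted p = 0.0609 and 0.0520), and that of Insig1 without vehicle library 1 or sulodexide library 2 or 3 (adjusted p = 0.0685, 0.0765 and 0.0633), so that without sulodexide library 2 or 3 there were 0 calls. At an unadjusted p below 0.05, 12 members were lower, where 2786 of all 13701 tested genes passed in either direction. DESeq2 called 5 members lower, which were Hmgcs1, Mvd, Sc5d, Srebf2 and Insig1, where it called 754 of all 13701 tested genes lower.

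Most other members leaned the same way without passing. Of the 28 log2 changes 22 were negative and 6 positive, with a median of -0.33 beside 0.02 over all tested genes. All 8 genes of the mevalonate arm and all 3 from squalene to lanosterol were on the negative side, with medians of -0.35 and -0.56. Without vehicle library 2 the median over the 28 members was -0.10, and without vehicle library 3 it was -0.47. Idi1, Ggps1, Nsdhl, Hsd17b7 and Scap turned positive without vehicle library 2, at log2 changes of 0.049, 0.052, 0.102, 0.042 and 0.021. The libraries did not overlap in 8 members, all lower with sulodexide, which were Hmgcs1, Mvk, Pmvk, Mvd, Msmo1, Sc5d, Srebf2 and Insig1. Of all tested genes 13.1% were lower and 11.1% higher without overlap.

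Hmgcs1 had the largest change of those that did not pass, at 0.511 of its vehicle level (log2 -0.97 ± 0.27 SE, adjusted p = 0.0747), and at a log2 change of -0.60 without vehicle library 2. Hmgcs1 passed without vehicle library 3 (log2 -1.24, adjusted p = 0.0247). Sqle had a log2 change of -0.65 ± 0.24 SE (adjusted p = 0.168) and Lss one of -0.56 ± 0.21 SE (adjusted p = 0.161). Among the sensors, Srebf2 had a log2 change of -0.51 ± 0.16 SE (adjusted p = 0.104), and Insig2 one of 0.12 ± 0.18 SE (adjusted p = 0.770). Late-pathway values were -0.58 ± 0.23 SE for Msmo1 (adjusted p = 0.189) and -0.38 ± 0.13 SE for Sc5d (adjusted p = 0.117). The 6 positive values belonged to Tm7sf2, Ebp, Insig2, Stard4, Abcg5 and Abca1, with Abca1 at 0.24 ± 0.21 SE (adjusted p = 0.575) the largest, and of these Ebp, Insig2 and Stard4 turned negative under scaling by library totals, and Tm7sf2 and Abcg5 without sulodexide library 3. Over the same comparison all 6 cholangiocyte markers and 3 of 6 stellate cell and myofibroblast markers fell, beside 3.41% of all tested genes. Of the 5 markers of dividing cells 3 fell, and 0 of 6 macrophage markers passed in edgeR while DESeq2 called 2 lower. For hepatocytes 0 of 6 markers passed in edgeR, at an unadjusted p below 0.05 or in DESeq2. Without sulodexide library 3 all 6 cholangiocyte calls were lost (adjusted p from 0.0514 to 0.0902), and without vehicle library 1 or 3 or sulodexide library 2 most of them. Of the stellate cell calls, that of Pdgfrb was lost without vehicle library 1 or 3 or any sulodexide library. The part of these cell types in the lower sterol genes was not tested.

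Against control, livers with TAA and sulodexide had 5 members higher and 4 lower, where 11.2% of all tested genes were higher and 11.4% lower. Pmvk was 1.86-fold higher (log2 0.90 ± 0.14 SE, adjusted p = 0.00138), and Fdft1 1.65-fold (adjusted p = 0.0198), Sqle 1.69-fold (adjusted p = 0.0489), Dhcr7 1.40-fold (adjusted p = 0.0455) and Insig2, as above, 3.25-fold. Insig1 was the lowest relative to control, at 0.458 of its level (log2 -1.13 ± 0.15 SE, adjusted p = 0.000559). Ebp was at 0.673 (adjusted p = 0.0144), Tm7sf2 at 0.676 (adjusted p = 0.0452) and Stard4 at 0.684 (adjusted p = 0.0309). This comparison shares its control libraries with the one above, so it gives no separate evidence on the control level.

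Only 3 of these 9 calls, Pmvk, Insig1 and Insig2, held under all 16 alternatives. The falls of Tm7sf2, Ebp and Stard4 were lost under scaling by library totals, with adjusted p of 0.238, 0.0920 and 0.220, and in FPKM, with 0.244, 0.0875 and 0.225. Fdft1 was lost without control library 2 or 3 or sulodexide library 3, with adjusted p of 0.0631 to 0.0854, and Ebp also without control library 2 or sulodexide library 1, with 0.0580 and 0.0530. Sqle was lost with a filter of 1 count (0.0721) and without control library 2 or 3, vehicle library 1 or any sulodexide library (up to 0.168). Dhcr7 was lost without any control or sulodexide library or vehicle library 1 (up to 0.144), and Tm7sf2 without control library 1 or 2, any vehicle library or sulodexide library 1 or 2 (up to 0.141) and in a fit of the 2 groups only (0.0686). Stard4 was also lost without any control library or sulodexide library 2 or 3 (up to 0.0881). Leaving out a library in turn gave 2 to 6 members higher and 1 to 3 lower. Without overlap of libraries 13 members were higher and 4 lower, where 21.4% and 20.6% of all tested genes were. The 13 were Acat2, Hmgcs1, Mvk, Pmvk, Idi1, Fdps, Fdft1, Sqle, Lss, Cyp51, Nsdhl, Dhcr7 and Insig2, and the 4 were Ggps1, Ebp, Insig1 and Stard4.

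Neighbouring steps of the mevalonate arm stood apart in the sulodexide livers. Mvd was at 1.01 times its control level (log2 0.02 ± 0.19 SE, adjusted p = 0.957), whereas Pmvk, the step before it, was above control in 3 of 3 libraries. Hmgcs1 was at 1.76 times control (log2 0.82 ± 0.27 SE, adjusted p = 0.0541), a difference that passed in DESeq2 (adjusted p = 0.0143) and without vehicle library 2 or 3 (0.0137 and 0.00940). It also passed under scaling by library totals (0.0240), which moved the median log2 change of all tested genes up by 0.27. Srebf2 was at 0.964 times its control level (log2 -0.05 ± 0.16 SE, adjusted p = 0.846). The median log2 change against control was 0.35 for the mevalonate arm, 0.72 from squalene to lanosterol, -0.21 from lanosterol to cholesterol, -0.05 for sensing and transfer and -0.15 for export. Over the 28 members it was 0.14 (0.02 over all tested genes).

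Per length, the members differed widely in level in control liver. Insig1 was the highest, at 95 FPKM (fragments scaled to gene length and library total), followed by Ebp at 75.4 and Sc5d at 70.5 FPKM. The lowest were Lss at 2.45 and Lbr at 1.43 FPKM, with Ggps1 between them. Thus the member that fell furthest below control with sulodexide was the most abundant in control liver.

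Genes that act around the pathway were looked at as well, by lists written for the purpose. Of 11 genes that process or degrade the sterol sensors, 1 rose and 3 fell with TAA and vehicle, beside 23.1% and 20.4% of all tested genes. Pgrmc1, which binds Scap, Insig1 and sterol enzymes, rose from a mean of 1112 to 1430 CPM (log2 0.36 ± 0.12 SE, adjusted p = 0.0343). Erlin1, a membrane protein of the endoplasmic reticulum that takes part in degradation of sterol-regulated proteins, fell with a log2 change of -0.69 ± 0.16 SE (adjusted p = 0.00585), and Sec23a, a coat protein of the vesicles that leave it, with -0.45 ± 0.15 SE (adjusted p = 0.0319). Rnf139, a ubiquitin ligase, fell with -0.31 ± 0.11 SE (adjusted p = 0.0414) but was at 0.08 under scaling by library totals. With sulodexide against vehicle, 0 of the 11 passed in edgeR or DESeq2, and 1 was higher at an unadjusted p below 0.05.

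Among genes that make or use acetyl-CoA, Acss2, the cytosolic acetyl-CoA synthetase, rose with TAA and vehicle from 145 to 236 CPM (log2 0.71 ± 0.23 SE, adjusted p = 0.0270). Acat1, the mitochondrial counterpart of Acat2, fell from 375 to 184 CPM (log2 -1.03 ± 0.11 SE, adjusted p = 4.34e-05). Acss3, an acyl-CoA synthetase, fell with a log2 change of -1.35 ± 0.36 SE (adjusted p = 0.0113).

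Of 12 genes of the non-sterol isoprenoid branch, Ggps1 included, 0 passed with TAA and vehicle in edgeR or DESeq2, and 2 were higher and 2 lower at an unadjusted p below 0.05. The fatty acid arm that Srebf1 governs had 3 of 12 genes higher and 3 lower with TAA and vehicle, near the shares over all tested genes (23.1% and 20.4%). Srebf1 was at 182, 307 and 250.3 CPM in control, 144, 103 and 153 with vehicle and 58.1, 83.2 and 76.2 with sulodexide, and the 3 groups did not overlap. Srebf1 fell with TAA and vehicle (log2 -0.88 ± 0.22 SE, adjusted p = 0.00723) and was lower again with sulodexide than with vehicle (log2 -0.88 ± 0.22 SE, adjusted p = 0.0450), so that it was highest in control and lowest with sulodexide. The second difference missed the threshold without control library 3 (adjusted p = 0.0692), vehicle library 1 or 3 (0.144 and 0.141) or any sulodexide library (0.121, 0.0851 and 0.104). Me1, malic enzyme, rose with a log2 change of 0.78 ± 0.18 SE (adjusted p = 0.00472) and Elovl5, a fatty acid elongase, with 0.85 ± 0.27 SE (adjusted p = 0.0283), whereas Fads1, a desaturase, fell with -0.57 ± 0.16 SE (adjusted p = 0.0143).

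Genes for the removal of cholesterol as bile acids showed the largest falls near the pathway, 5 of 6 with TAA and vehicle, beside 20.4% of all tested genes. Cyp7a1, the rate-limiting enzyme of bile acid synthesis, was at 143, 211 and 177 CPM in control, 11.1, 21.7 and 11.8 with vehicle and 56.5, 85.9 and 38.8 with sulodexide, and the 3 groups did not overlap. Cyp7a1 fell with TAA and vehicle (log2 -3.57 ± 0.36 SE, adjusted p = 8e-05) and was 4.06-fold higher with sulodexide than with vehicle (log2 2.02 ± 0.34 SE, adjusted p = 0.0156). The second difference missed the threshold without vehicle library 1 or 3 (adjusted p = 0.0637 and 0.0656). Cyp27a1, of the alternative route, fell from 655 to 301 CPM (log2 -1.12 ± 0.11 SE, adjusted p = 3.59e-05) and was at 320.4 CPM with sulodexide. Nr1h4, the bile acid receptor, fell with a log2 change of -1.04 ± 0.17 SE (adjusted p = 0.000631) and Cyp7b1, an oxysterol hydroxylase, with -2.93 ± 0.57 SE (adjusted p = 0.00461). Pericentral hepatocyte markers share their place in the lobule with Cyp7a1. They summed to 10490 to 12620 CPM in control, 2698 to 3771 with vehicle and 3855 to 5399 with sulodexide. Of these 7 markers 4, Glul, Cyp2e1, Oat and Slc1a2, were lower with TAA and vehicle than in control, and 1, Rhbg, was higher. The same 5 were called in the same direction with sulodexide against control. The part of pericentral cells in the falls of the bile acid genes was not tested.

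Of 10 genes for the liver X receptors, which sense oxysterols, and their targets, the 3 export genes included, 2 rose and 2 fell with TAA and vehicle, which is near the shares of 23.1% and 20.4% over all tested genes. With sulodexide against vehicle 0 passed in edgeR, while 2 were higher and 3 lower at an unadjusted p below 0.05 and DESeq2 called 1 higher and 2 lower. Nr1h2 rose with a log2 change of 0.50 ± 0.12 SE (adjusted p = 0.00714), and Nr1h3, the form most abundant in hepatocytes, fell with -0.35 ± 0.12 SE (adjusted p = 0.0328) but was at 0.05 under scaling by library totals. Lpl, lipoprotein lipase, rose with 1.55 ± 0.41 SE (adjusted p = 0.0132) and Mylip, a ubiquitin ligase for lipoprotein receptors, fell with -0.74 ± 0.19 SE (adjusted p = 0.00797). Of 16 genes of uptake, storage and transfer 5 rose and 6 fell with TAA and vehicle, beside 23.1% and 20.4% of all tested genes. Gramd1c, a carrier that takes sterol from the plasma membrane, fell from 33.4 to 12.7 CPM and was at 13.3 CPM with sulodexide (log2 -1.40 ± 0.20 and -1.33 ± 0.20 SE against control, adjusted p = 0.000318 and 0.00113), and its relative Gramd1b rose with 1.62 ± 0.35 SE (adjusted p = 0.00338). Osbpl2, an oxysterol-binding protein, fell with -0.55 ± 0.11 SE (adjusted p = 0.00205), and Npc2, which hands sterol out of lysosomes, rose with 0.63 ± 0.13 SE (adjusted p = 0.00327).

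The calls around the pathway were not equally stable in the comparison of TAA and vehicle with control. Those of Acat1, Nr1h2, Npc2, Gramd1b, Gramd1c, Me1, Cyp7a1, Cyp27a1, Cyp7b1 and Nr1h4 held under all 16 alternatives, and those of the other genes named around the pathway were lost in at least 1. Under scaling by library totals and in FPKM the falls of Erlin1, Mylip, Osbpl2, Srebf1, Fads1, Sec23a, Acss3, Nr1h3 and Rnf139 missed the threshold. With totals the log2 change of Fads1 was -0.17 (adjusted p = 0.421), that of Sec23a -0.06 (0.780) and that of Acss3 -0.97 (0.05998). Lpl was lost without control library 2 (adjusted p = 0.0520), Fads1 also without vehicle library 3 (0.0554) and Acss3 also without control library 1 (0.0591). Acss2 was lost without any control library or vehicle library 1 or 2 (adjusted p up to 0.106), and Pgrmc1 without the same libraries (up to 0.113) or with a filter of 1 count (0.0575). Elovl5 was lost without control library 2 or 3 or vehicle library 1 or 2 (up to 0.103), and Sec23a also without control library 1 or 2 or vehicle library 1 or 3 (up to 0.108). Nr1h3 was also lost without control library 1 or 2 or any vehicle library (up to 0.114). Rnf139 was also lost with a filter of 1 count (adjusted p = 0.0759) and without control library 1 or 2, vehicle library 1 or 3 or sulodexide library 1 or 2 (up to 0.147).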

How the data were processed

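Deposited counts per gene and FPKM, named so per the file headers, were used for 9 mouse liver libraries. The submitters' processing notes name HISAT2 2.0.4, StringTie 1.3.0 and the builds mm10 and GRCm38.p4, without role or order. Neither the counting program nor its use of strand is given in the sources used here. Within each gene, the count divided by the deposited FPKM and by the library total stayed within 0.0516% of its median over libraries (122533 values). The deposited FPKM therefore carry the scaling by totals.

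The counts were analysed in R 4.3.3 with edgeR 4.0.16. Genes were kept by filterByExpr (minimum count 10), which left 13701 of 34745, with TMM factors for scaling. A model with a mean per group and no block took in all 9 libraries, and groups were compared with the robust quasi-likelihood F-test and Benjamini-Hochberg adjustment over all tested genes, at 0.05. Standard errors of log2 changes were derived from the F statistic. CPM use the TMM factors. The test was checked on simulated counts. Levels of different genes were compared in FPKM only.

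The 28 members and all other gene lists were chosen with earlier results of these data known. Up to 4 genes with an adjusted p below 0.05 were named from each other list, by p in the comparison of TAA and vehicle with control. Alternatives were DESeq2 1.42.0, RLE factors, library totals, a filter of 1 count, fits of 2 groups only, the replicate number as a block, leaving out each library, and limma 3.58.1 on log2 of FPKM with a pseudocount of 0.1. Library pairs within groups differed beyond sampling noise (chi-square per gene from 20.2 to 50.9). Of the members, 22 have the coordinates of GENCODE M21 (GRCm38), 15 overlap another annotated gene and 9 a protein-coding gene. Promoter windows came from RefSeq (GRCm38.p6) for 24 members, and windows of the other 4, Fdft1, Fdps, Sqle and Stard4, were not used here. Intervals from counting error were not computed. Some genes are not reported here.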

Additional observations from a re-analysis of the deposited data

How the results depend on the processing

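Over the 28 members, 3 comparisons and 16 alternatives, 1192 of 1344 log2 changes kept their direction and side of the threshold, 66 lost and 39 gained the call, and 47, in 26 of the 84 pairs of member and comparison, changed sign. None of the 47 had an adjusted p below 0.05.

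For TAA and vehicle against control, library totals and FPKM gave log2 changes of Hsd17b7 0.312 and 0.273, Abcg8 0.183 and 0.180 and Abca1 0.001 and 0.008, and totals gave Insig1 0.012. Over the left-out libraries Lbr ran from -0.019 to 0.219, Msmo1 from -0.088 to 0.344, Hsd17b7 from -0.395 to 0.114, Scap from -0.048 to 0.234 and Abcg5 from -0.036 to 0.213. For sulodexide against vehicle, totals and FPKM gave Ebp -0.036 and -0.037 and Insig2 -0.028 and -0.023, and totals gave Stard4 -0.002. Over the left-out libraries Idi1 ran from -0.674 to 0.049, Ggps1 from -0.15 to 0.052, Tm7sf2 from -0.061 to 0.28, Nsdhl from -0.344 to 0.102, Hsd17b7 from -0.467 to 0.042, Scap from -0.26 to 0.021, Abcg5 from -0.048 to 0.334 and Abcg8 from -0.125 to 0.095. For sulodexide against control, totals and FPKM gave Lbr 0.042 and 0.028, Sc5d 0.189 and 0.185, Srebf2 0.199 and 0.190, Scap 0.232 and 0.222, Abcg8 0.030 and 0.024 and Abca1 0.109 and 0.049. Over the left-out libraries Mvd ran from -0.066 to 0.145, Sc5d from -0.166 to 0.002, Srebf2 from -0.153 to 0.080, Scap from -0.085 to 0.061 and Abca1 from -0.324 to 0.091.

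The cause was not tested. With library totals or FPKM, 0 members were lower for TAA and vehicle against control in place of 3. Those settings moved the median of all tested genes by 0.407 and 0.374 (log2) there, by -0.124 and -0.118 for sulodexide against vehicle, and by 0.273 and 0.245 for sulodexide against control. The split of all calls changed from 3161 higher and 2792 lower to 5756 and 1156 with totals and 5747 and 1161 with FPKM for TAA and vehicle against control, from 191 and 467 to 91 and 693 and to 93 and 714 for sulodexide against vehicle, and from 1537 and 1564 to 3315 and 757 and to 3201 and 768 for sulodexide against control. The median of the members became 0.906 and 0.882 in place of 0.512, and 0.389 and 0.368 in place of 0.135. For sulodexide against control 9 members were higher with totals, with FPKM and with the 2 groups only, in place of 5, and 1 was lower with totals and with FPKM in place of 4. For sulodexide against vehicle DESeq2 called 5 lower in place of 2, and over all genes 388 higher and 754 lower, while the fit of the 2 groups gave 84 and 302.

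Leaving out a library gave 10 to 16 members higher and 3 to 5 lower with TAA and vehicle against control, 0 to 0 higher and 0 to 3 lower with sulodexide against vehicle, and 2 to 6 higher and 1 to 3 lower with sulodexide against control. Over all genes, sulodexide against vehicle then gave 44 to 189 higher and 95 to 670 lower. Calls that held in all 16 alternatives numbered 10 of 17, 0 of 2 and 3 of 9. With the replicate block the counts were 14 and 3, 0 and 2, and 5 and 3. For sulodexide against control the block lost Dhcr7 (adjusted p = 0.0530) and Tm7sf2 (0.0790) and gained Hmgcs1 (0.0352), and for TAA and vehicle against control it lost Rnf139 (0.0548). Deviations of libraries with the same number correlated between -0.07 and 0.142, and those with different numbers in different groups between -0.152 and 0.152. Whether a shared number stands for a shared batch is not given in the labels and cannot be told from these values. Groups of 3 libraries limit which modest changes can pass.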
